A study of Homo sapiens with 6 samples.

Results

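The 39 genes of the human HOX clusters were examined in RNA-seq libraries of HEK-293T cells with and without THUMPD1. They were taken from the table of 58870 genes as every row whose symbol was HOXA, HOXB, HOXC or HOXD followed only by a number, which gave 11 HOXA, 10 HOXB, 9 HOXC and 9 HOXD genes. HOX genes encode homeodomain transcription factors that give cells their position along the head-to-tail axis of the embryo. They lie in 4 clusters in which gene order follows body order, and genes with the same number, called a paralog group, descend from one ancestral gene. Low-numbered (anterior) genes act in the hindbrain and neck, and high-numbered (posterior) genes act in the lumbar and tail regions, the limbs and the urogenital system. The pattern is set in the embryo and then held over cell divisions by Trithorax group proteins, which keep HOX genes on, and Polycomb group proteins, which keep them off.

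HEK-293T is an immortalized line of human embryonic kidney origin. The wild-type (WT) group was the unedited parental line. The THUMPD1 KO group was derived from it by CRISPR-Cas9 cutting of THUMPD1, which encodes the adaptor of the acetyltransferase NAT10 for cytidine acetylation in tRNA, followed by single-cell sorting, so that an effect of THUMPD1 and a trait of the sorted cell cannot be told apart. Each group had 3 libraries of Trizol-extracted, ribosomal RNA-depleted total RNA, with total expected counts between 32225646 and 44099898. The labels number the libraries as replicates but name no separate cultures, so p-values measure the spread between these libraries, which may be technical. Levels are given as CPM (expected counts scaled to a library total of 1000000), listed in the order of replicates 1, 2 and 3. Changes are log2 fold changes of THUMPD1 KO over WT from limma-voom with Benjamini-Hochberg adjustment over 15088 genes, and a gene was called changed at an adjusted p under 0.05.

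THUMPD1 itself was at 77.3, 84.6 and 80.8 CPM in WT and 10.2, 12 and 10.9 CPM in THUMPD1 KO (log2 fold change −2.87, SE 0.085, adjusted p = 3.17e-08), so the libraries matched their labels. An exact permutation test of 3 against 3 libraries gave p = 0.1, the smallest that this design allows. Across all tested genes 26.7% were called, 13.0% lower and 13.7% higher in THUMPD1 KO, with a median log2 fold change of 0.02. The labelled kidney origin showed in part of its markers. Of 18 markers of the embryonic kidney and nephron 8 were tested, with summed levels of 160.3 to 178.0 CPM in WT and 169.1 to 178.3 CPM in THUMPD1 KO. SALL1 was at 54.6, 46.7 and 51.5 CPM in WT and 56.5, 58.2 and 60.7 CPM in THUMPD1 KO, LRP2 at 60.8, 59 and 59.2 CPM in WT and 51.1, 66.4 and 63.9 CPM in THUMPD1 KO. The other tested kidney markers were PAX2, WT1, SIX2, LHX1, EYA1 and GATA3, and the mature nephron markers UMOD, AQP2, SLC34A1 and CDH16 had a count of 0 in every library. Of 12 neuron and neural crest markers 5 were tested, with summed levels of 121.1 to 140.7 CPM in WT and 117.5 to 131.7 CPM in THUMPD1 KO. The neurofilament gene NEFM fell (log2 fold change −2.75, SE 0.21, adjusted p = 1.30e-05), while NEFL, INA, TUBB3 and GAP43 rose. The 6 markers of adrenal cortex summed to at most 0.617 CPM and the 8 of blood and immune cells to at most 1.83 CPM. Fibroblast markers summed to 13.2 to 21.2 CPM over all libraries, with COL1A1 lower in THUMPD1 KO and COL3A1 and LUM not called, and epithelial markers to 50.5 to 57.6 CPM in WT and 34.2 to 43.8 CPM in THUMPD1 KO, with KRT18 lower and KRT8 and CDH1 not called. The part of such differences in the HOX changes was not tested.

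HEK-293T cells expressed genes of all 4 HOX clusters. The HOXA cluster spans chr7:27092993-27200091, the HOXB cluster chr17:48528526-48728750, the HOXC cluster chr12:53938831-54056030 and the HOXD cluster chr2:176092721-176190907 (GRCh38, GENCODE 44). Of the 39 genes 35 reached 1 CPM in at least 3 libraries and were tested. The 4 below this level were HOXB1, a hindbrain gene of group 1 with a count of 0 in all 6 libraries, HOXC12, HOXD1 and HOXD12. A count of 0 allows HOXB1 a level of up to 0.068 to 0.0931 CPM, depending on the library. HOXC12 had 23, 12 and 10 counts in WT and 10, 7 and 10 without THUMPD1. HOXD1 had 25, 23 and 18 counts in WT and 23, 19 and 25 without THUMPD1. HOXD12 had at most 10 counts in any library. With no CPM filter none of these last 3 was called (adjusted p = 0.267, 0.881 and 0.873), at a background of 10.1% of genes called. These 4 genes were thus at or near silence beside expressed neighbors in the same cluster, in both genotypes.

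Levels of different genes were compared as CPM per kb of merged exon length. HOXD13, which patterns the digits and the genital tubercle, had the highest level in WT at 47.6 ± 1.38 CPM per kb (SD, n = 3). HOXB9, a thoracic-level gene, followed at 44.3 ± 4.51 CPM per kb, and the ranges of these neighbors in the order overlapped. HOXA5, which acts in the lung and the neck-to-thorax skeleton, was next at 35.5 ± 1.42 CPM per kb and lay below the range of HOXB9. HOXA9, known for its role in blood stem cells and leukemia, was at 33.5 ± 1.31 CPM per kb and lay above the range of the next gene, HOXA10. HOXA10, HOXD10 and HOXD11 lay at 19.6 ± 0.455, 19.1 ± 2.56 and 18.9 ± 1.41 CPM per kb, and these neighbors overlapped. HOXA6 and HOXB6 followed at 16.4 ± 0.725 and 16.1 ± 1.43 CPM per kb, also overlapping. In all, 14 genes in WT and 11 in THUMPD1 KO reached a mean of 10 CPM per kb, and 35 in WT and 34 in THUMPD1 KO reached 1 CPM per kb.

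HOXD13 and HOXB9 led the order in both genotypes. In THUMPD1 KO HOXD13 was at 44 ± 0.3 and HOXB9 at 43.8 ± 2.93 CPM per kb. HOXA9 took the third place at 31.7 ± 0.397 CPM per kb and HOXA5 the fourth at 30.04 ± 1.09 CPM per kb. HOXA10 moved from rank 5 in WT to rank 9 in THUMPD1 KO, where it was at 13.4 ± 0.198 CPM per kb. The order depends on the length used, since HOXA9 has the highest level in WT when the longest annotated transcript replaces the merged exons.

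The HOX repertoire was kept in the THUMPD1 KO clone, but 12 of the 35 tested genes were lower in it. No HOX gene was called higher. The share called lower was 34.3%, beside 13.0% of all tested genes. In bulk RNA, fewer cells with a gene on and less of its RNA per cell cannot be told apart. The 12 genes were HOXA5, HOXA10, HOXA11, HOXA13, HOXB13, HOXC5, HOXC9, HOXC10, HOXC11, HOXC13, HOXD11 and HOXD13, so 10 of them belong to paralog groups 9 to 13. Their log2 fold changes ran from −0.69 to −0.13, and none reached a 2-fold change, which 1.79% of all tested genes did. The median over the 35 genes was −0.13, and 27 of 35 had a negative log2 fold change, beside 46.4% of all tested genes. For 11 of the 12, all 3 THUMPD1 KO libraries lay below all 3 WT libraries, beside 17.6% of all tested genes in that direction. No HOX gene was higher by limma-voom at an unadjusted p under 0.05 either. In either direction 14 of 35 passed this measure, all of them lower, beside 39.2% of all tested genes in either direction. The share of all genes that were lower by this measure was not taken. EdgeR and DESeq2 called 0 genes higher and 11 each lower, beside 13.8% and 13.2% of all genes. These sets differed, since edgeR lost HOXC11, while DESeq2 lost HOXC5 and HOXC11 and gained HOXC4. TMM scaling lost HOXC11 and gained HOXC4, removal of GC content and length trends lost HOXB13, and plain library sizes left 8 calls, without HOXB13, HOXC5, HOXC11 and HOXD13. With the replicate number as a block, which pairs the libraries, HOXC4 was added to the 12 (35.1% of all genes called, 16.7% lower). With no CPM filter 7 HOX genes were called, against the 10.1% of all genes given above, and HOXB13, HOXC5, HOXC9, HOXC11 and HOXD13 were lost.

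**Figure D1:**
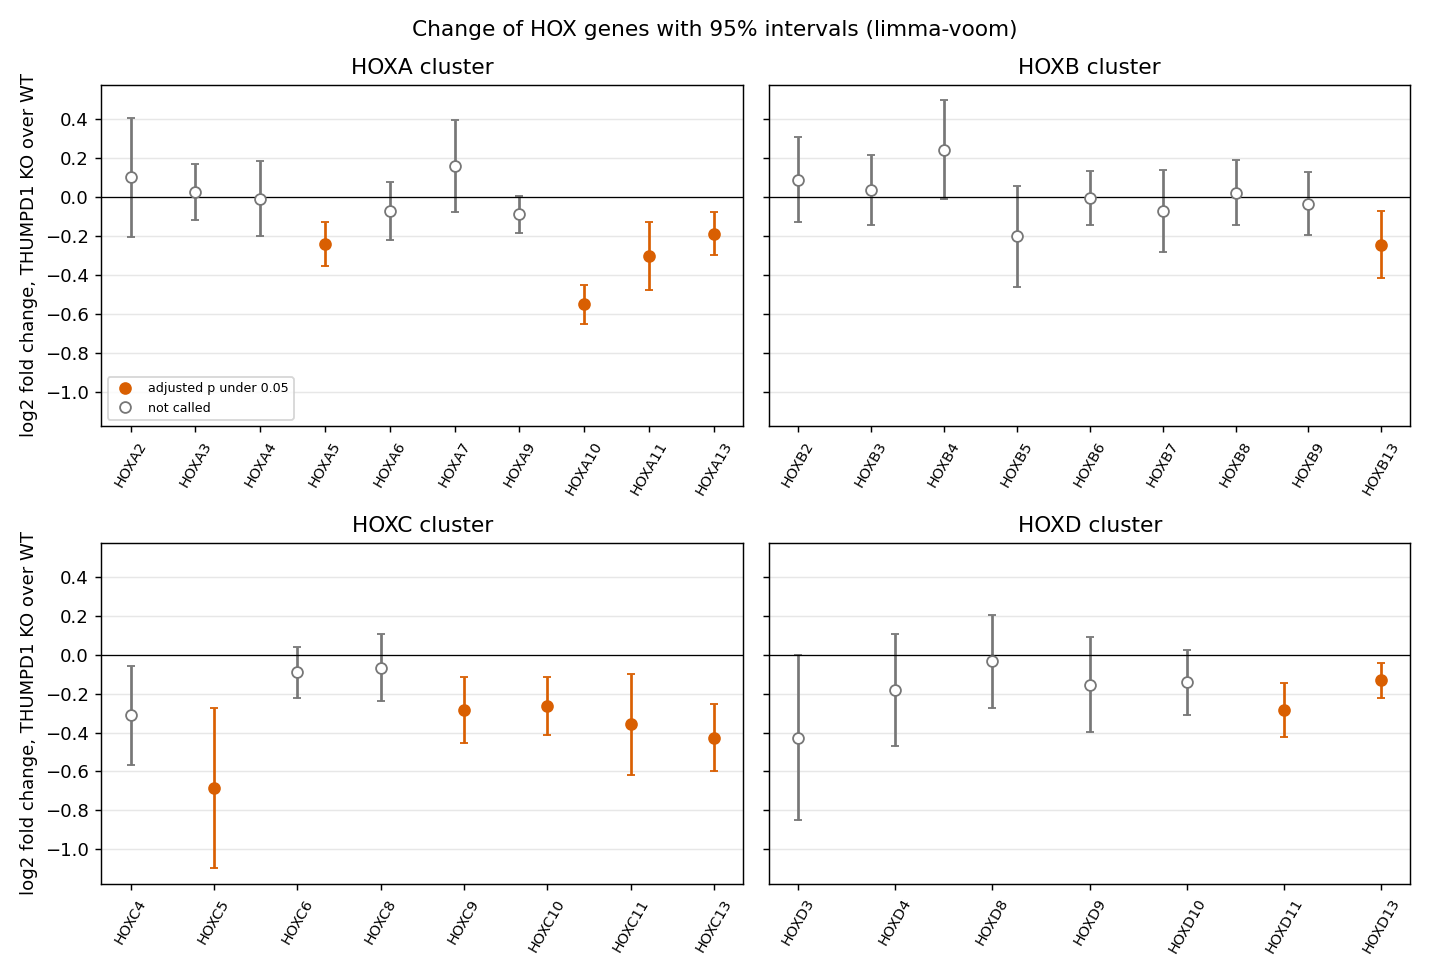
Log2 fold change of THUMPD1 KO over WT for the tested HOX genes described here with 95% intervals from limma-voom, 1 panel per cluster with genes in paralog order. Filled orange points are the 12 genes with an adjusted p under 0.05, all below 0, and open gray points are genes not called.

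Most of the called genes lay toward the posterior end of the clusters. In groups 9 to 13, 10 of 14 tested genes were called lower, all 14 had negative log2 fold changes, and the median was −0.25. In groups 4 to 8, 2 of 15 were called lower with a median of −0.07. This share of 13.3% was near the 13.0% of all tested genes called lower. In groups 1 to 3, none of 6 was called, by limma-voom, edgeR or DESeq2, with a median of 0.06, and 1 (HOXD3) had an unadjusted p under 0.05 by limma-voom. The median SE was 0.091 in groups 1 to 3, 0.095 in groups 4 to 8 and 0.075 in groups 9 to 13. By cluster, 4 of 11 HOXA genes, 1 of 9 HOXB genes, 5 of 8 HOXC genes and 2 of 7 HOXD genes were called lower. The HOXB share (11.1%) was also near that of all tested genes. These counts describe the genes, and the difference between groups of genes was not tested.

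Group 13, which marks the tail end of the axis and the tips of the limbs, was called lower by limma-voom in all 4 clusters. The calls of HOXB13 and HOXD13 were lost with plain library sizes, with no CPM filter and in most fits that left out a library. HOXA13, needed for the hand, the foot and the lower urogenital tract, was at 68.6, 64.8 and 64.1 CPM in WT and 55.2, 58.5 and 59.5 CPM in THUMPD1 KO (log2 fold change −0.19, SE 0.05, adjusted p = 0.0184). HOXB13, a gene of the prostate and the tail, was at 16.7, 15.9 and 15.1 CPM in WT and 14.8, 11.9 and 13.7 CPM in THUMPD1 KO (log2 fold change −0.24, SE 0.078, adjusted p = 0.0394). HOXC13, which controls hair and nail keratin genes, was at 13.5, 14.5 and 14.2 CPM in WT and 11.1, 9.89 and 10.4 CPM in THUMPD1 KO (log2 fold change −0.43, SE 0.078, adjusted p = 0.0026). In each of these 3 genes every THUMPD1 KO library lay below every WT library. HOXD13 was at 113, 113 and 119 CPM in WT and 107, 106 and 106 CPM in THUMPD1 KO (log2 fold change −0.13, SE 0.041, adjusted p = 0.0354), and its groups did not overlap although the mean was 92.4% of WT. HOXC13 had the largest change of the 4, with a mean of 74.4% of WT.

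Group 11, whose members act together in the forming kidney and in the forearm and lower leg, was also lower by limma-voom in the 3 clusters that hold it, of which the HOXC11 call was lost by edgeR and DESeq2 (adjusted p = 0.0609 and 0.0817). HOXA11 was at 30.4, 33.9 and 35.8 CPM in WT and 26.9, 25.2 and 28.9 CPM in THUMPD1 KO (log2 fold change −0.30, SE 0.078, adjusted p = 0.0155). HOXC11 was at 5.53, 5.59 and 6.63 CPM in WT and 5.09, 4.69 and 4.44 CPM in THUMPD1 KO (log2 fold change −0.36, SE 0.12, adjusted p = 0.0453). HOXD11 was at 43.5, 38.2 and 38.4 CPM in WT and 35.2, 30.8 and 32.7 CPM in THUMPD1 KO (log2 fold change −0.28, SE 0.064, adjusted p = 0.00794). The libraries of the genotypes did not overlap for any of the 3. In the embryonic kidney, group 11 proteins act with EYA1 and PAX2 on SIX2. EYA1 was at 10.3, 9.6 and 10.01 CPM in WT and 8.78, 6.69 and 6.58 CPM in THUMPD1 KO and was lower (log2 fold change −0.46, SE 0.10, adjusted p = 0.0075). PAX2, at 3.13, 1.84 and 1.99 CPM in WT and 4.63, 3.42 and 3.26 CPM in THUMPD1 KO, was higher (log2 fold change 0.64, SE 0.18, adjusted p = 0.0231). SIX2 was at 21.1, 22.2 and 21.9 CPM in WT and 18.4, 19.9 and 18.3 CPM in THUMPD1 KO, all KO libraries below the WT libraries, and its adjusted p was 0.0748. These partners of one pathway thus moved in different directions.

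Of the group 10 genes, which hold back rib formation in the lumbar region, HOXA10 and HOXC10 were called lower and HOXD10 was not called. HOXA10, which also patterns the uterus, was at 71.9, 71.4 and 74.6 CPM in WT and 50.1, 48.8 and 50.1 CPM in THUMPD1 KO (log2 fold change −0.55, SE 0.045, adjusted p = 2.02e-05), and its mean was 68.4% of WT. The genotypes lay apart by far more than the libraries within each. HOXC10, a lumbar gene, was at 24.9, 23.2 and 24.2 CPM in WT and 22, 18.2 and 20.1 CPM in THUMPD1 KO (log2 fold change −0.26, SE 0.068, adjusted p = 0.0155), without overlap. HOXD10, a gene of hindlimb motor neurons, was at 54.7, 44.8 and 42.8 CPM in WT and 42.8, 42 and 43.7 CPM in THUMPD1 KO (log2 fold change −0.14, SE 0.076, adjusted p = 0.19). WT replicate 1 of HOXD10 stood above the other 5 libraries, which lay close to each other. The 95% intervals of HOXD10 (−0.311 to 0.025) and HOXC10 (−0.411 to −0.113) overlapped, and the difference between these genes was not tested.

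Group 9 had 1 called gene. HOXC9, which sets thoracic motor neuron identity, was at 20.7, 17.7 and 19.2 CPM in WT and 17.4, 14.3 and 15.4 CPM in THUMPD1 KO (log2 fold change −0.28, SE 0.078, adjusted p = 0.0204), and its libraries did not overlap. HOXA9 was at 105, 103 and 97.1 CPM in WT and 96.4, 94.8 and 97.2 CPM in THUMPD1 KO (log2 fold change −0.09, SE 0.043, adjusted p = 0.153, 95% interval −0.18 to 0.01). Its libraries overlapped, since THUMPD1 KO replicate 3 exceeded WT replicate 3. HOXB9 was at 127, 104 and 112 CPM in WT and 121, 106 and 112 CPM in THUMPD1 KO (log2 fold change −0.03, SE 0.073, adjusted p = 0.76), with nearly the same range in both genotypes. HOXD9 was at 24.7, 17.1 and 18.9 CPM in WT and 19.4, 16.8 and 17.4 CPM in THUMPD1 KO (log2 fold change −0.16, SE 0.11, adjusted p = 0.328), with overlap.

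The posterior end of the HOXA cluster shows the changes side by side, since a called and an uncalled gene are neighbors there. HOXA9 and HOXA10 share part of their span (chr7:27162438-27175180 and chr7:27170605-27180261, both on the minus strand), so counts there are assigned by transcript. The count of HOXA10 divided by that of HOXA9 needs no scaling between libraries, and was 0.687, 0.694 and 0.768 in the WT libraries, against 0.52, 0.515 and 0.515 without THUMPD1. These ratios did not overlap. This ratio and the one below were chosen after the values were seen. The 250 bases upstream of 1 RefSeq start (GRCh38.p14, minus strand, read 5′ to 3′) are printed for each of the 4 posterior HOXA genes. Each CG, the dinucleotide that DNA methylation marks, is in capitals. The printed windows of HOXA9 and HOXA10 lie inside the spans of their own genes. HOXA10 has another window nearer its 5′ end, chr7:27179862-27180111, which holds 19 CG and is not printed. HOXA9 is at chr7:27165538-27165787, HOXA10 at chr7:27174321-27174570 (a start inside the span of HOXA9), HOXA11 at chr7:27185233-27185482 and HOXA13 at chr7:27200092-27200341.
HOXA9: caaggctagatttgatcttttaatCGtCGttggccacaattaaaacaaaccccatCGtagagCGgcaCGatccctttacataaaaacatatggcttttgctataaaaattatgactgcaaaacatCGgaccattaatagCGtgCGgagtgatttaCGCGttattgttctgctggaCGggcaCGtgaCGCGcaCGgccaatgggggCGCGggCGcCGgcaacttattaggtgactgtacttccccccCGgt
HOXA10: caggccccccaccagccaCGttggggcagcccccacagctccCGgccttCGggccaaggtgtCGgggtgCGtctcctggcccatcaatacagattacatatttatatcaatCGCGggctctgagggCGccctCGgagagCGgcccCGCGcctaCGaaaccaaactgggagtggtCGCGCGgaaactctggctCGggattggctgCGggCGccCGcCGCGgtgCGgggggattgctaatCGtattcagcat
HOXA11: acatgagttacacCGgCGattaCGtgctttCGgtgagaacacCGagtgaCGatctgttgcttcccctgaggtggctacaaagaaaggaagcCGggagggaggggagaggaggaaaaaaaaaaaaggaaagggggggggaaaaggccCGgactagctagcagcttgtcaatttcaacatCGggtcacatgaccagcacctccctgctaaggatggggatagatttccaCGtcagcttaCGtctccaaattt
HOXA13: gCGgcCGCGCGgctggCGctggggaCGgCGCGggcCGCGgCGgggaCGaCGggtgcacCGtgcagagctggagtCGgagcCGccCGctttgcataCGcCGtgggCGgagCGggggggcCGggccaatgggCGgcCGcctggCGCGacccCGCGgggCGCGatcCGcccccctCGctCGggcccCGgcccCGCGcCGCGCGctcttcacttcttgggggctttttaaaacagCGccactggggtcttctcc

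The printed windows hold 20, 24, 11 and 40 CG dinucleotides for HOXA9, HOXA10, HOXA11 and HOXA13. The median was 19 over 27 windows of the 20 HOX genes matched and 11 over 35116 windows of all genes. The letters CCAAT, searched on both strands, were in 66.7% of the HOX windows and in 32.01% of all windows. TATAAA, on both strands, was in 5 of the 27 HOX windows (18.5%) and in 10.7% of all. The called HOXA13 had the most CG of the 4 and the called HOXA11 the fewest. HOXC4 and HOXC5 have the same window and were the only HOXC genes matched, and the silent HOXB1 was the only HOXB gene. A gene can have several windows, and HOXA3 gave the most. The called HOXA5, HOXB13, HOXC9, HOXC10, HOXC11 and HOXC13 were not matched. The values for HOX windows thus describe the matched genes and not all HOX genes.

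The window of HOXA11 overlaps an exon of HOXA11-AS, the antisense RNA on the opposite strand. HOXA11-AS was at 19.6, 18.9 and 18.7 CPM in WT and 10.4, 9.52 and 10.8 CPM in THUMPD1 KO (log2 fold change −0.89, SE 0.071, adjusted p = 1.70e-05), and its mean of 53.9% of WT went with the largest log2 fold change in size among the tested genes of the clusters. The count of HOXA11-AS divided by that of HOXA11 was 0.643, 0.557 and 0.524 in the WT libraries, against 0.388, 0.378 and 0.375 without THUMPD1, and did not overlap. The libraries were stranded, but the methods do not say whether the counting used strand. If it did not, reads of genes that overlap on opposite strands cannot be told apart. This also holds for HOXA10-AS (with HOXA9 and HOXA10) and HOTTIP (with HOXA13). HOXA10-AS was at 3.61, 4.03 and 5.02 CPM in WT and 4.81, 4.67 and 4.9 CPM in THUMPD1 KO (log2 fold change 0.16, SE 0.15, adjusted p = 0.469), with overlap. HOTTIP, an RNA that is known to keep posterior HOXA genes active, overlaps HOXA13 on the opposite strand. It was at 1.31, 1.2 and 1.05 CPM in WT and 1.42, 1.47 and 1.6 CPM in THUMPD1 KO (log2 fold change 0.21, SE 0.16, adjusted p = 0.373). Neither was called, although the 3 THUMPD1 KO libraries of HOTTIP lay above those of WT.

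**Figure D2:**
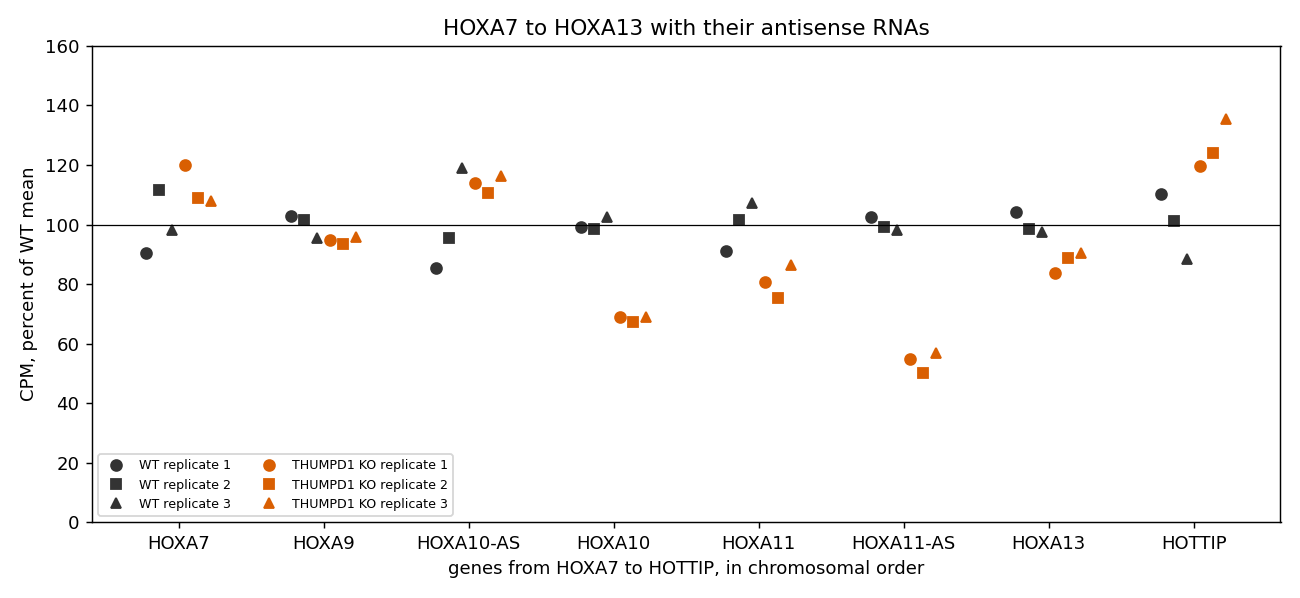
CPM of each library as percent of the WT mean for genes from HOXA7 to HOTTIP in chromosomal order, with symbols for libraries as before. HOXA10, HOXA11, HOXA11-AS and HOXA13 lie below WT in all 3 THUMPD1 KO libraries, HOXA9 is near 100%, and HOXA7, HOXA10-AS and HOTTIP overlap with WT or lie above it.

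Of groups 4 to 8, HOXA5 and HOXC5 were called. HOXA5 was at 63.9, 59.8 and 59.5 CPM in WT and 49.5, 52.6 and 52.9 CPM in THUMPD1 KO (log2 fold change −0.24, SE 0.051, adjusted p = 0.00565), and its libraries did not overlap. HOXC5, one of the lowest of the tested genes, was at 2.7, 1.86 and 2.13 CPM in WT and 1.87, 1.4 and 1.18 CPM in THUMPD1 KO (log2 fold change −0.69, SE 0.19, adjusted p = 0.0203). THUMPD1 KO replicate 1 slightly exceeded WT replicate 2, so this was the called gene whose genotypes overlapped. HOXC5 lies within the span of HOXC4 on the same strand. HOXC4 was at 25.2, 18.4 and 21 CPM in WT and 20.5, 15.4 and 15.6 CPM in THUMPD1 KO (log2 fold change −0.31, SE 0.12, adjusted p = 0.0687) and had an adjusted p of 0.00392 with the replicate block. In both genes replicate 1 was the highest library of its genotype.

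The other group 4 to 8 genes were not called. In the HOXA cluster, HOXA4 was at 14.5, 12.8 and 13.1 CPM in WT and 12.3, 13.4 and 14.6 CPM in THUMPD1 KO (−0.01 on the log2 scale). HOXA6 was at 22, 20.1 and 21 CPM in WT and 18.9, 20.4 and 20.3 CPM in THUMPD1 KO (−0.07 on the log2 scale). HOXA7 was at 7.14, 8.81 and 7.75 CPM in WT and 9.47, 8.59 and 8.53 CPM in THUMPD1 KO (0.16 on the log2 scale). Each of these had genotypes that overlapped.

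In the HOXB cluster the group 4 to 8 genes lay on both sides of 0. HOXB4, which can expand blood stem cells, was at 8.66, 6.84 and 6.87 CPM in WT and 9.24, 9.73 and 7.6 CPM in THUMPD1 KO (0.24 on the log2 scale, 95% interval −0.01 to 0.50). HOXB5 was at 12, 8.09 and 8.99 CPM in WT and 8.8, 7.94 and 8.41 CPM in THUMPD1 KO (−0.20 on the log2 scale), and WT replicate 1 stood above the rest. HOXB6 was at 46.2, 39.2 and 40.5 CPM in WT and 44.1, 41.4 and 40.3 CPM in THUMPD1 KO (−0.01 on the log2 scale). These genes overlapped between genotypes, as did the next pair. HOXB7 was at 11, 10.2 and 8.56 CPM in WT and 10.3, 9.03 and 8.88 CPM in THUMPD1 KO (−0.07 on the log2 scale). HOXB8 was at 20.3, 16.4 and 16.9 CPM in WT and 18.3, 17.5 and 17.9 CPM in THUMPD1 KO (0.02 on the log2 scale).

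In the HOXC and HOXD clusters the uncalled genes of these groups had small negative values. HOXC6 was at 21.9, 20.6 and 20.6 CPM in WT and 20.7, 18.7 and 19.5 CPM in THUMPD1 KO (−0.09 on the log2 scale). HOXC8, which acts in brachial motor neurons, was at 14.1, 14 and 12 CPM in WT and 12.9, 12.4 and 13 CPM in THUMPD1 KO (−0.07 on the log2 scale). In the same cluster HOXC8 and HOXC13 had WT levels of 5.53 ± 0.494 and 5.96 ± 0.204 CPM per kb, and of this pair only HOXC13 was called. Within the posterior groups, calls also differed between genes at like levels. HOXA10 (called) and HOXD10 (not called) were at 19.6 ± 0.455 and 19.1 ± 2.56 CPM per kb in WT. The part of level in the calls was not tested, nor was the difference between the genes of either pair. HOXD4 was at 3.8, 2.79 and 3.33 CPM in WT and 3.32, 2.9 and 2.87 CPM in THUMPD1 KO (−0.18 on the log2 scale). HOXD8 was at 6.39, 6.03 and 6.55 CPM in WT and 7.03, 6.49 and 5.43 CPM in THUMPD1 KO (−0.03 on the log2 scale). Their genotypes overlapped.

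The anterior genes described here had positive or near-zero log2 fold changes apart from HOXD3. HOXA2, which patterns the second pharyngeal arch, was at 4.89, 5.29 and 5.34 CPM in WT and 5.02, 6.49 and 5.77 CPM in THUMPD1 KO (0.10 on the log2 scale). HOXA3, needed for the thymus and parathyroid, was at 33.4, 31.8 and 31 CPM in WT and 31.4, 31.2 and 35.8 CPM in THUMPD1 KO (0.03 on the log2 scale). Both overlapped between genotypes, and so did the HOXB genes. HOXB2 was at 7.36, 6.13 and 6.28 CPM in WT and 8.11, 6.83 and 6.55 CPM in THUMPD1 KO (0.09 on the log2 scale). HOXB3 was at 38.8, 32.1 and 29.8 CPM in WT and 36.1, 32.9 and 33.7 CPM in THUMPD1 KO (0.03 on the log2 scale). HOXD3 was at 6.9, 4.22 and 4.45 CPM in WT and 3.8, 3.33 and 5.22 CPM in THUMPD1 KO (−0.43 on the log2 scale, adjusted p = 0.124), and WT replicate 1 stood above the other libraries.

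The 23 uncalled genes had a median SE of 0.087, and the 12 called ones one of 0.073. For the uncalled genes the 95% interval of the log2 fold change lay within −0.5 and 0.5 for 21, and the exceptions were HOXC4 and HOXD3. Over all 35 genes the interval lay in this range for 29, beside 74.0% of all tested genes.

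Summed over their genes, the HOXA, HOXC and HOXD clusters had lower totals in every THUMPD1 KO library than in any WT library, and HOXB did not. The HOXA sum was 428.4 ± 6.11 CPM in WT and 378.6 ± 9.64 CPM in THUMPD1 KO (SD, n = 3), which is 88.4%. The HOXC sum was 121.8 ± 6.63 and 102.3 ± 8.58 CPM (84.0%), and the HOXD sum 238.3 ± 14.1 and 214.1 ± 5.35 CPM (89.8%). The HOXB sum was 257.5 ± 26.8 and 254.5 ± 14.5 CPM (98.8%), with overlap. All 39 genes together held 1107, 1008 and 1023 CPM in WT and 973.9, 921.4 and 953.3 CPM in THUMPD1 KO. Groups 9 to 13 made up 65.2% to 66.7% of these sums in WT and 63.8% to 64.2% in THUMPD1 KO, so posterior genes held most HOX RNA in both. No test was made on the sums.

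**Figure D3:**
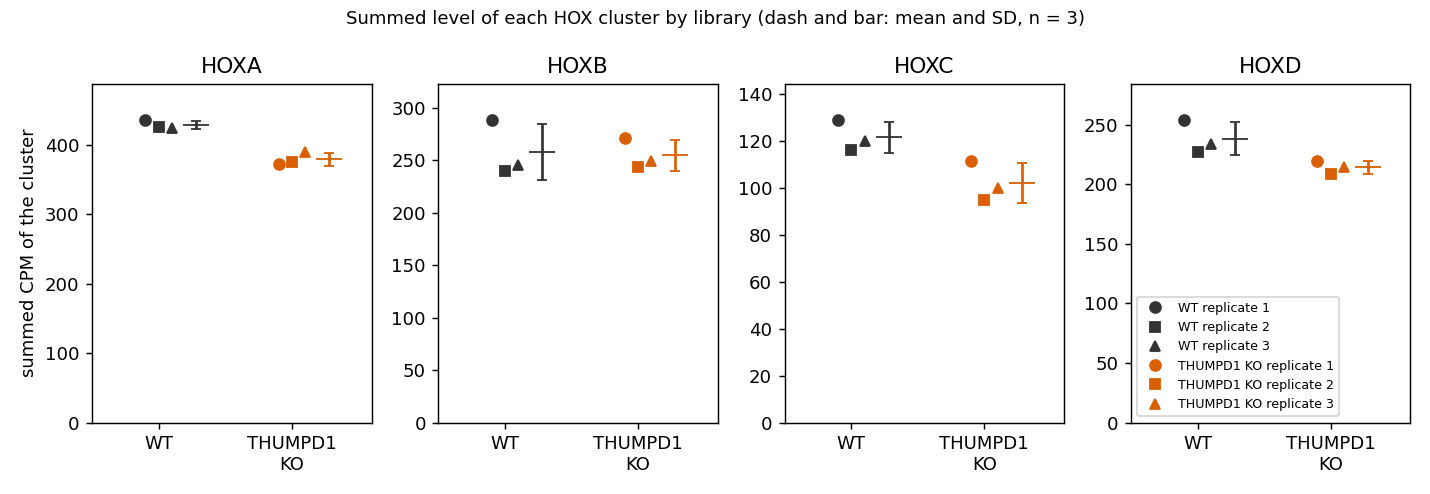
Summed CPM of each HOX cluster in every library, on axes from 0, with the mean and SD (n = 3) beside the points. The genotypes do not overlap for HOXA, HOXC and HOXD, and overlap for HOXB, where replicate 1 is the highest library of each genotype.

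Replicate 1 was often the highest library of its genotype. In WT it was highest for 26 of 35 HOX genes, among them all 9 tested HOXB genes, beside 51.9% of all tested genes. In THUMPD1 KO it was highest for 23 of 35, among them 8 of 9 HOXB genes, beside 46.5% of all tested genes. Without WT replicate 1, 10 genes were called, and without THUMPD1 KO replicate 1, 9 were. The part of the replicate 1 levels in the HOX changes was not tested.

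Only 4 calls, HOXA5, HOXA10, HOXC13 and HOXD11, held in all 6 fits that left out 1 library (named here by genotype and replicate). Without WT 1, HOXB13 and HOXC5 lost their calls (adjusted p = 0.0507 to 0.0631). Leaving out WT 2, 10 genes were called, HOXC4 was gained, and HOXB13, HOXC11 and HOXD13 were lost (adjusted p = 0.0662 to 0.0996). In the fits lacking WT 3 or KO 2, 5 genes were called, and HOXA11, HOXB13, HOXC5, HOXC9, HOXC10, HOXC11 and HOXD13 were lost (adjusted p = 0.0553 to 0.172 and 0.075 to 0.168). Omitting KO 3 left 6 calls, with the same genes apart from HOXA11 lost (adjusted p = 0.0501 to 0.129). Omitting KO 1 left 9, with HOXA11, HOXA13, HOXC11 and HOXD13 lost (adjusted p = 0.0512 to 0.075) and HOXC4 gained. All 12 kept a negative sign in every fit.

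Another 61 genes, noncoding and readthrough genes, lie at least in part within the span of the outermost HOX genes of a cluster. Of these 16 were tested, with a median of 0.01. Only 2 were called, both lower, beside 13.0% of all tested genes called lower. These were HOXA11-AS and HOXC-AS2, an antisense RNA of the HOXC cluster at 1.61, 1.35 and 1.34 CPM in WT and 0.901, 0.907 and 0.838 CPM in THUMPD1 KO (log2 fold change −0.85, SE 0.17, adjusted p = 0.00415). HOXC-AS2 lies opposite HOXC9, which was also lower, and HOXC6, which was not called. It reached 1 CPM only in the WT libraries and so passed the filter through them alone. With at least 1 CPM required in all 6 libraries, 15 of these transcripts were tested and 1 was called. Next by adjusted p was the unnamed HOXA gene ENSG00000272801, at 2.76, 2.1 and 2.21 CPM in WT and 2.01, 1.83 and 2.04 CPM in THUMPD1 KO, which was not called (adjusted p = 0.0934).

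Cofactors of HOX proteins also changed. The TALE homeodomain proteins of the PBX, MEIS and PKNOX families bind DNA together with HOX proteins, and all 9 listed genes were tested. Of these 5 were called lower (among them PBX2 and PKNOX2) and 1 higher (MEIS3), with a median of −0.17. Of all tested genes 13.0% were called lower and 13.7% higher, 26.7% in either direction. PKNOX2 was at 19.2, 17.4 and 17.9 CPM in WT and 12.9, 10.9 and 13.4 CPM in THUMPD1 KO (log2 fold change −0.55, SE 0.078, adjusted p = 5.88e-04). MEIS3 was at 7.5, 5.9 and 6.06 CPM in WT and 12.3, 9.25 and 11.1 CPM in THUMPD1 KO (log2 fold change 0.72, SE 0.11, adjusted p = 0.00106). PBX2 was at 117, 114 and 115 CPM in WT and 106, 98.1 and 99.6 CPM in THUMPD1 KO (log2 fold change −0.21, SE 0.042, adjusted p = 0.00437). The genotypes of these 3 did not overlap.

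Of 36 Polycomb group genes, regulators of HOX memory, 3 were called higher and 4 lower, beside 13.7% and 13.0% of all tested genes, with a median of −0.02. CBX6, a reader of the Polycomb mark, was at 292, 317 and 316 CPM in WT and 242, 241 and 246 CPM in THUMPD1 KO (log2 fold change −0.36, SE 0.044, adjusted p = 2.79e-04). PHC3, of the same complex, was at 103, 103 and 101 CPM in WT and 118, 129 and 124 CPM in THUMPD1 KO (log2 fold change 0.25, SE 0.044, adjusted p = 0.00218). BMI1, a core subunit known for holding HOX genes off, was at 157, 162 and 159 CPM in WT and 143, 136 and 138 CPM in THUMPD1 KO (log2 fold change −0.22, SE 0.04, adjusted p = 0.00304). None of these overlapped, and they moved in both directions. Without THUMPD1 KO replicate 2, 4 Polycomb group genes were called.

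Of 24 Trithorax group and HOX activator genes 3 were called, all higher, beside 13.7% of all tested genes called higher, with a median of 0.04. These were AFF4, of the super elongation complex, at 188, 182 and 183 CPM in WT and 202, 202 and 211 CPM in THUMPD1 KO (log2 fold change 0.15, SE 0.04, adjusted p = 0.0184). HCFC2 was at 17.1, 20.2 and 19.5 CPM in WT and 22.1, 24.7 and 22.2 CPM in THUMPD1 KO (log2 fold change 0.31, SE 0.09, adjusted p = 0.0281). RBBP5, a core subunit of the KMT2 methyltransferases, was at 46.9, 48.6 and 48.8 CPM in WT and 54.1, 52.5 and 54.3 CPM in THUMPD1 KO (log2 fold change 0.15, SE 0.047, adjusted p = 0.0336). The number of genes called depended on which library was left out. It was 6 without KO 1, 0 without KO 3, and 1 without each of the other 4 libraries in turn. Of 10 genes of cluster boundaries and chromatin loops only the cohesin subunit STAG2 was called (log2 fold change −0.15, SE 0.043, adjusted p = 0.028), and this call was lost when WT 1, WT 3, KO 2 or KO 3 was left out.

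Of 40 ParaHox and other developmental homeobox genes 30 were tested, with a median of −0.0001. In this list 8 were called higher and 1 lower. Of all tested genes 13.7% were called higher and 13.0% lower, 26.7% in either direction. BARX1, a gene of the stomach and the face, had the smallest adjusted p at 6.24, 6.08 and 5.82 CPM in WT and 12.7, 11 and 11.5 CPM in THUMPD1 KO (log2 fold change 0.93, SE 0.085, adjusted p = 3.81e-05). EN2, of the midbrain and cerebellum, was at 75.9, 79.9 and 80.4 CPM in WT and 92.7, 97.6 and 97.7 CPM in THUMPD1 KO (log2 fold change 0.28, SE 0.048, adjusted p = 0.00187). MSX2, of skull and limb, was at 15, 12.7 and 13.7 CPM in WT and 18.7, 16.9 and 17.2 CPM in THUMPD1 KO (log2 fold change 0.36, SE 0.071, adjusted p = 0.00432). All 3 rose without overlap. Among the 134 genes within 500 kb outside the clusters 35 were tested, of which 3 were called higher and 3 lower, with a median of 0.0018. HIBADH, near the HOXA cluster, was at 36.3, 36.2 and 33.6 CPM in WT and 30.1, 27.2 and 26.9 CPM in THUMPD1 KO (log2 fold change −0.33, SE 0.058, adjusted p = 0.00209). CALCOCO2, near the HOXB cluster, was at 66.3, 62.5 and 61.3 CPM in WT and 55.1, 49.9 and 50.9 CPM in THUMPD1 KO (log2 fold change −0.28, SE 0.051, adjusted p = 0.00234). LINC02381, near the HOXC cluster, was at 12.1, 9.7 and 10.3 CPM in WT and 18.1, 14.6 and 13.9 CPM in THUMPD1 KO (log2 fold change 0.54, SE 0.099, adjusted p = 0.00287). These neighbors moved in both directions, and the share called was below that of all tested genes.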

How the data were processed

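Total RNA of HEK-293T cells was sequenced as paired-end, stranded, ribosomal RNA-depleted libraries on a NovaSeq. Per the labels and methods, the authors aligned reads to hg38 with STAR and counted with RSEM. The deposited table holds expected counts, which need not be whole and are not scaled between libraries. Positions and lengths came from GENCODE 44 (58472 of 58870 IDs matched), although the methods name GENCODE 46.

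As in the study, genes under 1 CPM were removed (here those with 1 CPM in fewer than 3 of the 6 libraries), counts were quantile normalized, and genotype was tested two-sided in limma-voom (limma 3.58.1, R 4.3.3), without other terms. P-values were adjusted by Benjamini-Hochberg over 15088 genes. The steps were tested on simulated data. Alternatives were TMM or plain library sizes, other CPM filters, edgeR 4.0.16 and DESeq2 1.42.0 on counts rounded to whole numbers, quality weights, removal of GC content and length trends, an adjusted p under 0.01, each library left out and the replicate block. Deviations of same-numbered libraries correlated at 0.287, 0.257 and 0.162 over 11722 genes. Those of unlike-numbered libraries ran from −0.275 (WT 2 with KO 1) to 0.113 (WT 2 with KO 3). Deviations from one genotype mean depend on each other, so these values do not settle whether the numbers pair the libraries. The main fit used no pairing.

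The HOX genes and the other gene lists were chosen with earlier results of these data known. Named genes were THUMPD1, all HOX genes, at most 3 genes of each list by adjusted p, and cell type markers at 1 CPM or at 0. A few genes of these lists count in the totals but are not reported here by name. The count ratios were chosen after the values were seen. The 95% intervals are from limma and cover the spread between libraries, and the limits from a count of 0 (3 counts) cover counting error only.

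Of the 39 HOX genes, 25 overlap a gene on the opposite strand and 24 one on the same strand. Between members, 6 genes share a run of 100 bases, always within a cluster (HOXB3 with HOXB6, HOXC4 with HOXC6, HOXD10 with HOXD11), so their counts depend on how RSEM divided reads. A fractional count occurred for 14 genes.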

Additional observations from a re-analysis of the deposited data

How the results depend on the processing

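The precision of 3 libraries per genotype limits small changes, and the lowest HOX genes rest on few counts. The called HOX genes numbered 7 with no CPM filter and 4 at an adjusted p under 0.01, and 5 to 10 with a library left out, and the fold changes of all 12 kept their sign. With the replicate block 13 HOX genes were called and the pairing changed no other HOX call than that of HOXC4. Of all genes, 2083 were called at an adjusted p under 0.01 and 2663 to 4245 with a library left out, beside 4025 otherwise and 5297 with the block. Of the other cluster transcripts 1 was called by DESeq2 and 1 with at least 1 CPM in all 6 libraries. Without a library, called Polycomb group genes numbered 4 to 8, Trithorax group genes 0 to 6 and boundary genes 0 to 1. Trithorax group genes called were 8 with the GC and length trends removed and the replicate block, 7 with quality weights, 1 by edgeR, 1 with no CPM filter and 0 at an adjusted p under 0.01. Boundary genes called were 3 with the trends removed and the block, 2 with the trends removed, and 0 by TMM, by edgeR, by plain library sizes and at an adjusted p under 0.01. ParaHox and other homeobox genes numbered 14 with the trends removed and the block, 14 with quality weights and 5 at an adjusted p under 0.01. Flanking genes numbered 10 with quality weights and 3 at an adjusted p under 0.01. The causes of these differences were not tested.

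Signs turned only for 9 HOX genes that were not called and lay near 0 (log2 fold changes). With the trends removed, HOXA4 was 0.044, HOXA6 0.018 and HOXB6 0.0328, and with the block added 0.048, 0.0193 and 0.0316. With quality weights HOXA4 was 0.0503, HOXB6 0.0258 and HOXB9 0.0032. With TMM HOXA3 was −0.0033 and HOXB8 −0.022, and HOXB8 was −0.0221 by DESeq2 and −0.0228 by edgeR. With plain library sizes HOXB6 was 0.0011 and HOXD8 0.0033. With a library left out HOXA2 ran from −0.0315 to 0.239, HOXA3 from −0.0342 to 0.0662, HOXA4 from −0.0664 to 0.0742, HOXB3 from −0.0391 to 0.141, HOXB6 from −0.0502 to 0.061, HOXB8 from −0.0266 to 0.102, HOXB9 from −0.102 to 0.0482 and HOXD8 from −0.0861 to 0.0528.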
